A study of Mus musculus with 6 samples.

Results

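The Notch pathway genes described here are the 10 rows of the deposited gene table with the symbols Notch1, Notch2, Notch3, Notch4, Jag1, Jag2, Dll1, Hes1, Hey1 and Rbpj, of 23951 rows in all. All 10 were found by symbol, and all 10 passed the filter for testing. The study sequenced poly(A) RNA from whole skin of 3 JunBΔep mice (labelled JunB dep) and 3 control mice (labelled JunB +/+). All were C57Bl/6 and aged 6 to 7 months. The paper used mice of both sexes in the study as a whole, and the sex of each of these 6 was not available here. Its aim for the sequencing was to find out whether JunBΔep skin resembles atopic dermatitis in its transcripts. In JunBΔep mice Junb is deleted by a Cre driven by the keratin 5 promoter, so in keratin 5-expressing epithelial cells, and the skin taken from them was lesional. No treatment is named in the labels of either group. The comparison made here was JunBΔep against control skin for each member of the pathway, in FPKM (fragments per kilobase of transcript, scaled by mapped fragments).

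Notch proteins are receptors at the cell surface that are activated by ligands of the Jagged and Delta families on the neighbouring cell. Ligand binding exposes the receptor to ADAM proteases and then to γ-secretase, which frees an intracellular part that enters the nucleus, joins the DNA-binding protein Rbpj and switches on targets such as the Hes and Hey repressors. In skin the pathway is known for its part in the differentiation of suprabasal keratinocytes and of hair follicle lineages, and in blood vessels for its part in arterial and mural cell identity. Junb is a subunit of AP-1, a dimeric transcription factor.

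Promoter sequences show where the letters of these DNA-binding proteins lie among the members. RefSeq promoter windows (GRCm38.p6, from 250 bases before to 50 after the start of transcription) matched 8 of the 10 members, with 10 windows in all. Hes1 and Hey1 had no window. The AP-1 letters TGANTCA, searched on both strands, were in 1 window of Notch4 and 1 of Dll1, and 7.81% of all 32851 windows of the same length held them. The RBPJ letters TGGGAA, or TTCCCA on the other strand, were found among the members only in the windows of Rbpj itself, against 25.6% of all windows. The AP-1 letters of Notch4 begin at base -4 from the start and those of Dll1 at -109. Rbpj carries its RBPJ letters at -149 and -65. Jag1, the member with the largest difference between the groups, held neither, and most of all windows likewise lack either set of letters. A link between these letters and the levels was not tested. The sequences run 5′ to 3′ in the direction of the gene from base -250 to base 10 after the start, with the matched letters in capitals. They cover chr17:34564045-34564304 (plus strand) for Notch4, chr17:15376923-15377182 (minus strand) for Dll1, chr5:53590096-53590355 (plus strand) for Rbpj and chr2:137116511-137116770 (minus strand) for Jag1.
Notch4: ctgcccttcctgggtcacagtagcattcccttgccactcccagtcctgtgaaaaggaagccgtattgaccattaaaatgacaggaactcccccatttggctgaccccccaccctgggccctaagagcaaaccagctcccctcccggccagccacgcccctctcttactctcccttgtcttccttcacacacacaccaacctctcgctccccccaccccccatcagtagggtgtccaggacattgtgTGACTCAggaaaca
Dll1: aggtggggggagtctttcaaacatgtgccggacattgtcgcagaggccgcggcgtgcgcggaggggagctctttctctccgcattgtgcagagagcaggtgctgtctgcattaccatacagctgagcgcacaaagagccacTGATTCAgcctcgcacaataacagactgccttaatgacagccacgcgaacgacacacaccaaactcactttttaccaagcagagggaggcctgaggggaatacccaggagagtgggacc
Rbpj: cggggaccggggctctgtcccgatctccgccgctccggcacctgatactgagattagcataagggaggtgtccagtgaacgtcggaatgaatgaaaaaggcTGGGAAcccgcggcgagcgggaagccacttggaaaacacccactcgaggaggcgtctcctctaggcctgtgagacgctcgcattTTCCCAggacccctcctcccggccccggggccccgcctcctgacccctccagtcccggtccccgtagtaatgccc
Jag1: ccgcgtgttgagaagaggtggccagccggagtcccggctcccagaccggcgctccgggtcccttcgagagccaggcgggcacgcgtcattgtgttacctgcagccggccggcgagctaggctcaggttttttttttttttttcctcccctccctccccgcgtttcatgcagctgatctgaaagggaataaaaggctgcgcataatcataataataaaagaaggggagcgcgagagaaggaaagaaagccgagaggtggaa
A match is a description of the letters only, and binding was not measured here.

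Libraries differed in ways that bear on all values. Junb FPKM values, in the order of replicates 0, 1 and 2, were 59.3, 72.4 and 56.9 for controls and 129.6, 42.8 and 28.0 for JunBΔep skin. The targeted gene was therefore most abundant in the library labelled JunBΔep replicate 0. The deletion is limited to epithelial cells that express the Cre, and whole skin holds other cells as well. The cell source of this Junb signal was not tested, and neither was the label of this library. The same library held the markers of mucosal epithelium (summed 3798 FPKM, at most 1.41 elsewhere) and of neutrophils (24940.5 FPKM, 1468 in control replicate 0 and at most 137 elsewhere). Most of its neutrophil sum was S100a8, at 24456 FPKM. In that library S100a9 of the same list and the basal keratinocyte marker Krt14 were listed at 0. Whether such a 0 is absence or a missing value cannot be told from FPKM alone. In an alternative setting that took a 0 beside 3 FPKM or more as missing, 0 members were called. Control replicate 0 held liver markers (1693 FPKM, at most 29.6 elsewhere). Control replicate 2 and JunBΔep replicate 1 stood apart by hair follicle keratins, at 3722 and 6264 FPKM against 41.2 to 321 in the other 4. Summed keratinocyte markers were present in every library. The basal list was at 3801 to 6538 FPKM in control and 3894 to 4318 in JunBΔep skin. In the library labelled JunBΔep replicate 0 that sum includes the 0 of Krt14. Of the basal and suprabasal lists, Krt15 (80.7 FPKM, 947 or more elsewhere), Flg2 (3.08 FPKM, 68.2 or more elsewhere), Col17a1 and Lor were also lowest there. Krt5 (3725 FPKM, at most 2538 elsewhere), Krt1 (4466 FPKM, at most 958 elsewhere), Krtdap and Itga6 were highest there. Skeletal muscle markers were present in all libraries and lower in JunBΔep skin. Sample names fall into a 23 series (control replicates 0 and 1, JunBΔep replicate 0) and a 27 series (control replicate 2, JunBΔep replicates 1 and 2), whose meaning is not stated. Summed FPKM ran from 481078 to 630363, and the depth is unknown.

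None of the 10 members was called different between JunBΔep and control skin. Called means an adjusted p below 0.05 by limma on log2(FPKM + 0.5), with Benjamini-Hochberg adjustment over all 17021 genes tested, of which 1.38% were called. In the same limma fit 0 members were past the threshold without adjustment, against 7.56% of all genes, and 0 members had groups that did not overlap, against 14.8% of all genes. The members called were also 0 in the 20 alternative settings run, of which 7 left 0 genes called over the whole table, so that 0 members says nothing there. Positive log2 fold changes numbered 7 and negative ones 3, with a median of 0.07 beside a median of 0.03 over all genes tested. Single libraries moved the member median, to 0.19 without the library labelled JunBΔep replicate 0, 0.17 without JunBΔep replicate 2, 0.02 without control replicate 2, 0.12 without control replicate 1 and -0.03 without JunBΔep replicate 1. The p-values measure the spread between these mice, and with 3 against 3 an exact permutation test of a single gene cannot go below 0.1. In whole skin, fewer cells of a type and less RNA per cell cannot be told apart.

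**Figure D1:**
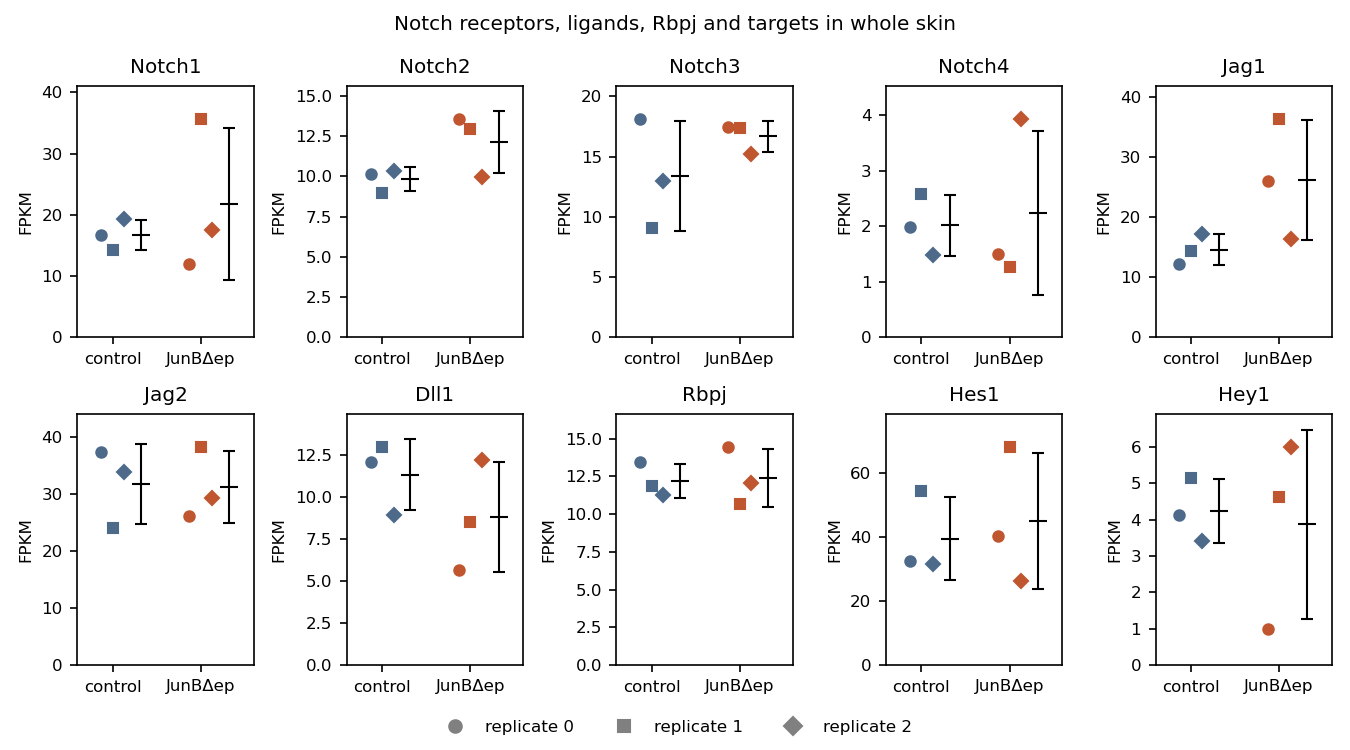
FPKM of the 10 Notch members (y axis, linear, from 0) in control and JunBΔep skin; each symbol is 1 library, its shape gives the replicate number, and the black mark is the mean with its SD (n = 3 per group). The groups overlap in every panel, and the widest separation of the means is that of Jag1, at 14.6 and 26.2 FPKM.

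All 4 receptors were measured in every library. Notch1, the main receptor of the epidermis (mm9 chr2:26313423-26372183, minus strand), had 16.6, 14.3 and 19.3 FPKM in the controls and 11.9, 35.7 and 17.5 in JunBΔep skin, values throughout standing in the order of replicates 0, 1 and 2. The lowest and the highest value both came from the JunBΔep group, with the controls between them. The log2 fold change was 0.23 ± 0.40 (SE, n = 3 and 3), with a 95% interval of -0.75 to 1.21 and an adjusted p = 0.846 by limma. It was 0.58 without the library labelled JunBΔep replicate 0 and -0.19 without JunBΔep replicate 1, so that a single library set its sign.

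Notch2 (mm9 chr3:97817461-97954290, plus strand), a receptor found widely in skin, was at 10.2, 8.97 and 10.3 FPKM in the controls and at 13.6, 12.9 and 9.96 in JunBΔep skin. JunBΔep replicates 0 and 1 lay above all controls and replicate 2 within them. The Notch2 log2 fold change was 0.29 ± 0.19 (SE; 95% interval -0.17 to 0.74; adjusted p = 0.722 by limma), and 0.20 without the library labelled JunBΔep replicate 0.

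Notch3 (mm9 chr17:32257765-32303825, minus strand), known as the receptor of vascular mural cells, was at 18.1, 9.08 and 12.95 FPKM in the controls and at 17.4, 17.4 and 15.2 in JunBΔep skin. Control replicate 0 was the highest of the 6 and control replicate 1 the lowest, while the JunBΔep libraries lay close together. The log2 fold change was 0.36 ± 0.27 (SE; 95% interval -0.29 to 1.01; adjusted p = 0.722 by limma). The value was 0.11 without control replicate 1. Without control replicate 0, the library with liver markers, it was 0.59 (adjusted p = 0.947 by limma) and Notch3 was the only member whose groups did not overlap, where 18.1% of all genes did not. With both replicates 0 left out Notch3 was again the only such member, against 28.8% of all genes, and without the library labelled JunBΔep replicate 0 alone there were 0 such members, against 24.1%.

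Notch4 (mm9 chr17:34701213-34725448, plus strand), the receptor of endothelial cells, had the lowest mean of the 10 members in each group, at 1.98, 2.58 and 1.48 FPKM in the controls and at 1.496, 1.27 and 3.93 in JunBΔep skin. JunBΔep replicate 2 was the highest of all and JunBΔep replicate 1 the lowest. In the library labelled JunBΔep replicate 0, Hey1 was below Notch4. The Notch4 log2 fold change was 0.02 ± 0.41 (SE; 95% interval -0.99 to 1.02; adjusted p = 0.990 by limma), and -0.40 without JunBΔep replicate 2.

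The 8 blood endothelium markers summed to 138, 171 and 98.9 FPKM in the controls and to 95.3, 60.4 and 217 in JunBΔep skin, so the highest and lowest libraries were those of Notch4. None of the 8 markers was at 0 in any library, and 0 of the 8 were called. As a percent of that sum, Notch4 was at 1.434, 1.508 and 1.496 in the controls and at 1.57, 2.10 and 1.82 in JunBΔep skin. On this scale, chosen after the values were seen, the Notch4 groups did not overlap, as was true of 5.38% of all genes divided in the same way. Without the library labelled JunBΔep replicate 0 the groups again did not overlap, as was true of 8.67% of all genes. Hey1, on the same scale, was at 2.97, 3.01 and 3.45 in the controls and at 1.03, 7.65 and 2.78 in JunBΔep skin, and its groups overlapped. The part of endothelial content in the Notch4 levels was not tested.

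**Figure D2:**
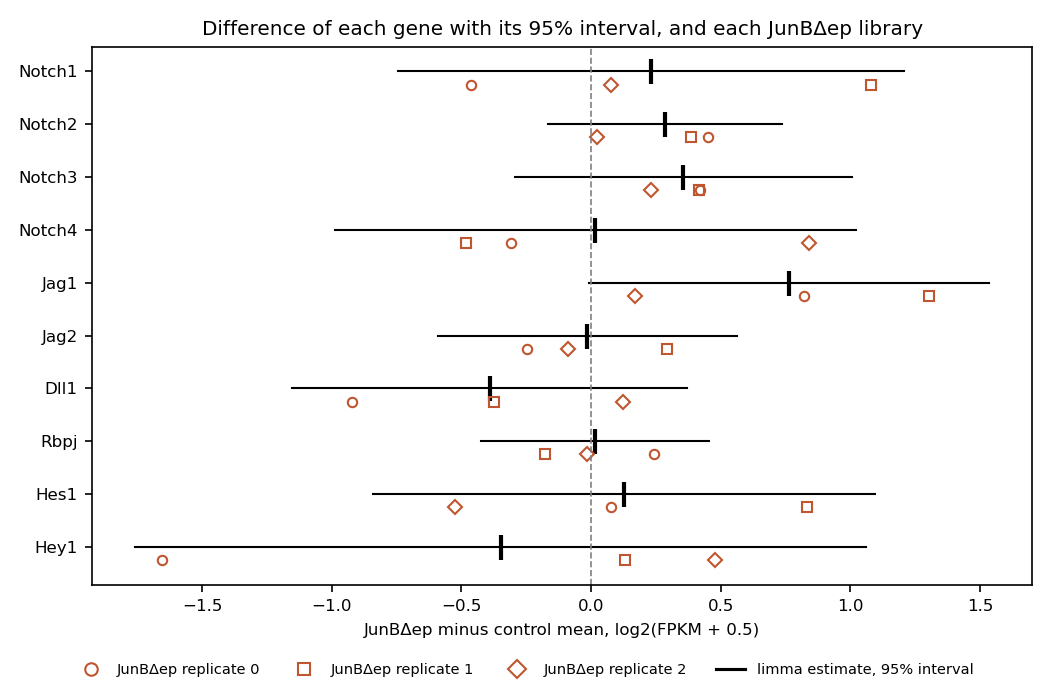
Log2 fold change of each member (x axis, JunBΔep minus the control mean on the log2(FPKM + 0.5) scale) with the limma estimate as a tick, its 95% interval as a line and each JunBΔep library as an open symbol. Every interval includes 0, the Jag1 interval only just (-0.01 to 1.54), and only for Notch2, Notch3 and Jag1 do all 3 symbols lie on the positive side.

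Among the ligands, Jag1 had the largest difference of the 10 members without passing the test. Jag1 (mm9 chr2:136907192-136942380, minus strand), a Jagged ligand of epithelia and vessels, was at 12.2, 14.4 and 17.2 FPKM in the controls and at 26.0, 36.4 and 16.3 in JunBΔep skin. JunBΔep replicates 0 and 1 were above all controls, and JunBΔep replicate 2 was below control replicate 2. The means were 14.6 ± 2.55 and 26.2 ± 10.04 FPKM (SD, n = 3 each), a ratio of 1.80. The log2 fold change was 0.76 ± 0.32 (SE), with a 95% interval of -0.01 to 1.54 and an adjusted p = 0.667 by limma. It stayed positive under all alternatives, from 0.50 to 1.06, with adjusted p from 0.151 to 1.

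That largest Jag1 value, 1.06, came without JunBΔep replicate 2, and the smallest, 0.50, without JunBΔep replicate 1. Jag1 had a log2 fold change of 0.74 without the library labelled JunBΔep replicate 0, 0.64 without control replicate 0 and 0.61 without both. Jag1 was higher in JunBΔep skin within the 23 series, by 0.95, and within the 27 series, by 0.49, although each rests on 1 library in 1 of the groups.

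Jag2 (mm9 chr12:114146801-114167706, minus strand), the other Jagged ligand of the epidermis, was at 37.5, 24.0 and 33.9 FPKM in the controls and at 26.2, 38.4 and 29.3 in JunBΔep skin. The 2 ranges nearly coincided. The log2 fold change was -0.01 ± 0.24 (SE; 95% interval -0.59 to 0.56; adjusted p = 0.952 by limma), and 0.10 without the library labelled JunBΔep replicate 0.

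Dll1 (mm9 chr17:15504318-15513836, minus strand), a ligand of the Delta family, was at 12.1, 13.002 and 8.93 FPKM in the controls and at 5.67, 8.53 and 12.2 in JunBΔep skin. JunBΔep replicates 0 and 1 were below all controls and JunBΔep replicate 2 was among them. The Dll1 log2 fold change was -0.39 ± 0.31 (SE; 95% interval -1.15 to 0.37; adjusted p = 0.722 by limma). It was -0.13 without the library labelled JunBΔep replicate 0 and -0.65 without JunBΔep replicate 2, with -1.08 within the 23 series and 0.18 within the 27 series.

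The receptor and ligand sums overlapped between the groups, and so did each gene's share of its sum. Receptor FPKM summed to 42.0 ± 6.25 in control and 52.8 ± 12.6 in JunBΔep skin (SD, n = 3 each), and Notch1 made 40.1 ± 4.23% and 39.1 ± 13.2% of it. Ligand FPKM summed to 57.7 ± 5.53 and 66.4 ± 14.7. Jag1 made 19.7, 28.0 and 28.7% of the ligand sum in the controls and 44.9, 43.7 and 28.2% in JunBΔep skin, so that JunBΔep replicates 0 and 1 were above all controls and JunBΔep replicate 2 was within them. Dll1 made 19.6, 25.3 and 14.9% in the controls and 9.79, 10.2 and 21.1% in JunBΔep skin, with JunBΔep replicates 0 and 1 below all controls and replicate 2 within them. Jag2 was the largest share in each of the 6 libraries, from 45.4 to 60.7%. These shares are descriptions and were not tested.

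**Figure D3:**
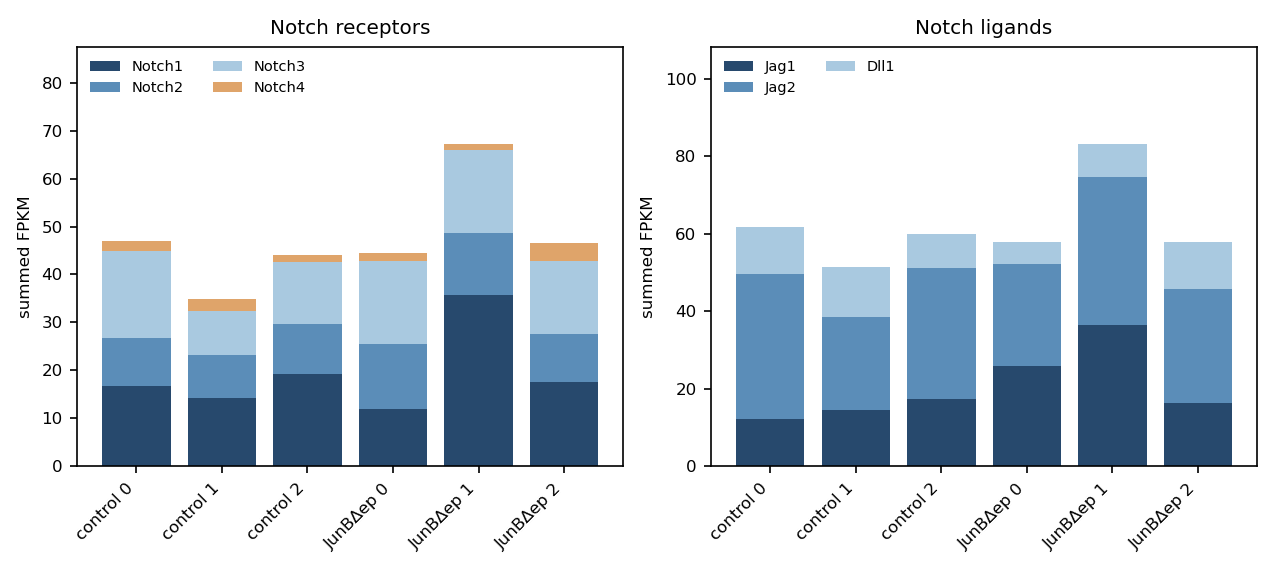
Summed FPKM (y axis, from 0) of the 4 Notch receptors, left, and of the 3 ligands, right, in each of the 6 libraries, with each gene as a stacked colour. JunBΔep replicate 1 has the tallest bar in both panels, at 67.3 FPKM for receptors and 83.3 for ligands.

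The nuclear factor Rbpj (mm9 chr5:53947018-54048684, plus strand), which all receptors share, was the steadiest of the 10 members. It was at 13.4, 11.9 and 11.3 FPKM in the controls and at 14.5, 10.7 and 12.03 in JunBΔep skin, with the groups interleaved. The log2 fold change was 0.02 ± 0.18 (SE; 95% interval -0.42 to 0.46; adjusted p = 0.978 by limma), and -0.10 without the library labelled JunBΔep replicate 0. Its SD over the 6 libraries was 0.16 on the log2 scale, smaller than that of all but 9.35% of the genes tested.

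Hes1 (mm9 chr16:30064470-30067882, plus strand), a repressor that Notch signals induce, had the highest mean of the members in each group, at 32.4, 54.5 and 31.5 FPKM in the controls and at 40.3, 68.3 and 26.4 in JunBΔep skin. JunBΔep skin held both the highest library, replicate 1, and the lowest, replicate 2. The Hes1 log2 fold change was 0.13 ± 0.40 (SE; 95% interval -0.84 to 1.10; adjusted p = 0.919 by limma). Jag2 was above Hes1 in 3 of the 6 libraries. The Hes1 value was 0.15 without the library labelled JunBΔep replicate 0 and -0.22 without JunBΔep replicate 1.

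Hey1 (mm9 chr3:8663362-8667039, minus strand), a related repressor known as a Notch target in vessels, varied most of the 10. It was at 4.11, 5.16 and 3.41 FPKM in the controls and at 0.983, 4.62 and 6.01 in JunBΔep skin, where the library labelled JunBΔep replicate 0 was far below the other 5. The log2 fold change was -0.35 ± 0.58 (SE; 95% interval -1.76 to 1.06; adjusted p = 0.837 by limma), and it turned to 0.30 without that library. Within the 23 series, which holds that library, the difference was -1.78, and within the 27 series it was 0.56. Both its SD of 0.77 on the log2 scale and its place, above 83.2% of all genes tested, were the highest among the members.

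Levels per length gave nearly the same order in each group. In the controls the order of mean FPKM was Hes1, Jag2, Notch1, Jag1, Notch3, Rbpj, Dll1, Notch2, Hey1 and Notch4. Neighbours in this order overlapped except Jag2 over Notch1, Notch2 over Hey1 and Hey1 over Notch4. In JunBΔep skin Jag1 stood before Notch1 and Notch2 before Dll1, and only Notch3 over Rbpj did not overlap. Of the libraries, JunBΔep replicate 1 was the highest of the 6 for 4 members (Notch1, Jag1, Jag2 and Hes1), and the library labelled JunBΔep replicate 0 was the lowest for 3 (Notch1, Dll1 and Hey1) and the highest for 2 (Notch2 and Rbpj). Control replicate 1 was also the lowest for 3 (Notch2, Notch3 and Jag2). The median member lay 0.34 above the control mean in JunBΔep replicate 1, against -0.08 in the library labelled replicate 0 and 0.10 in replicate 2 (log2 scale), while the medians over all genes in these libraries lay between -0.02 and 0.00. Within the 23 and the 27 series, each with 1 library in 1 of the groups, the differences had opposite signs for 5 members (Notch1, Notch4, Dll1, Hes1 and Hey1) and the same sign for Notch2, Notch3, Jag1, Jag2 and Rbpj.

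Of the other Notch pathway genes, 60 were measured and 59 tested, and 1 was called, lower in JunBΔep skin, beside 1.38% of all genes. Without adjustment 2 passed, against 7.56% of all genes. Groups did not overlap for 12, of which 8 were higher and 4 lower in JunBΔep skin, or 20.3% against 14.8% of all genes. Over all genes 5.62% were higher and 9.16% lower without overlap. Positive and negative log2 fold changes numbered 30 and 29, with a median of 0.03.

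The gene called was Neurl1a (symbol as in the table), a ubiquitin ligase of the Neuralized family that acts on Notch ligands. It was at 13.2, 13.3 and 12.96 FPKM in the controls and at 1.59, 1.63 and 2.14 in JunBΔep skin, with every JunBΔep library far below every control. The Neurl1a log2 fold change was -2.59 ± 0.19 (SE), with an adjusted p = 0.018 by limma. It was -2.53 without the library labelled JunBΔep replicate 0 (adjusted p = 0.044 by limma) and -2.58 without control replicate 0, where it was no longer called (adjusted p = 0.147 by limma). The call was also lost with the replicate number as a block (adjusted p = 0.145 by limma) and with the name series as a block (adjusted p = 0.066 by limma). Over 19 alternatives it was called in 12, and its value stayed between -2.82 and -2.35.

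The 10 skeletal muscle markers split the libraries as Neurl1a did. They summed to 17621, 23361 and 17249 FPKM in the controls and to 1815, 1644 and 3959 in JunBΔep skin, 8 of the 10 were called lower and none was at 0 in any library. As a percent of that sum Neurl1a was at 0.075, 0.057 and 0.075 in the controls and at 0.088, 0.099 and 0.054 in JunBΔep skin, and on this scale, chosen after the values were seen, the groups overlapped. The part of muscle content in the Neurl1a result was not tested.

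Among the enzymes that modify and cut the receptors, none was called. Rfng, a Fringe that adds sugars to Notch, had the highest mean of the 5 glycosylation genes over the 6 libraries, 21.4 FPKM against 20.4 for the Fringe Lfng, although Lfng was above it in every library but the one labelled JunBΔep replicate 0. Rfng was at 15.7, 17.7 and 16.9 FPKM in the controls and 32.2, 25.8 and 19.96 in JunBΔep skin (log2 fold change 0.59 ± 0.21, SE; adjusted p = 0.517 by limma). All JunBΔep libraries were above all controls, as they were for Poglut1, which adds glucose to Notch (0.33). The 10 cleavage genes had 2 such genes, where 5.62% of all genes were of this kind, the protease Adam10 (0.38, or 0.20 without the library labelled JunBΔep replicate 0) and the γ-secretase subunit Ncstn (0.19), and their most abundant member, the subunit Psenen, had a log2 fold change of -0.04. The 4 other ligands tested all had negative values, from -0.61 for the most abundant, Dlk2, to -0.21. None of the 4 was called. In JunBΔep replicate 2, Dll4 (0.41) and Dlk1 (0.27) lay above the control mean and Dll3 (-0.16) and Dlk2 (-0.12) below it (log2 scale). Dll3, with all JunBΔep libraries below all controls, was under 0.3 FPKM in every library. Dner was below the filter.

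The endocytosis and ubiquitin ligase list had 13 genes. Beside Neurl1a, the groups were apart for Numb, an inhibitor of Notch (0.43), and Fbxw7, which marks the active receptor for breakdown (-0.23), and the most abundant was Dtx3 (-0.03). Of the 6 co-activators Kat2b was lower in all JunBΔep libraries (-0.42, or -0.22 without the one labelled replicate 0) and Snw1, the most abundant, was at 0.04. Of the 11 co-repressors Hdac1 was higher in all (0.48), and the most abundant, Ctbp1, was at -0.21. Except for Neurl1a, none of these passed the test. Over all genes tested, groups did not overlap for 14.8%, with 5.62% higher and 9.16% lower in JunBΔep skin.

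The 10 other target genes held 2 with all JunBΔep libraries above all controls, beside 5.62% of all genes. Myc, a growth regulator, was at 19.2, 22.95 and 19.97 FPKM in the controls and at 54.2, 27.5 and 27.2 in JunBΔep skin, with the library labelled JunBΔep replicate 0 highest (log2 fold change 0.72 ± 0.30, SE; adjusted p = 0.666 by limma). Cdkn1a, a cell cycle inhibitor and the most abundant of the list, had a value of 0.27. Of the 12 genes with groups apart, 3 had a log2 fold change over 1.5 times smaller without the library labelled JunBΔep replicate 0, namely Adam10, Kat2b and Myc, the last at 0.40. Leaving out the library labelled JunBΔep replicate 0, groups did not overlap for 15 of the 59 other pathway genes, where 24.1% of all genes did not, and leaving out control replicate 0 for 14, where 18.1% did not.

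**Figure D4:**
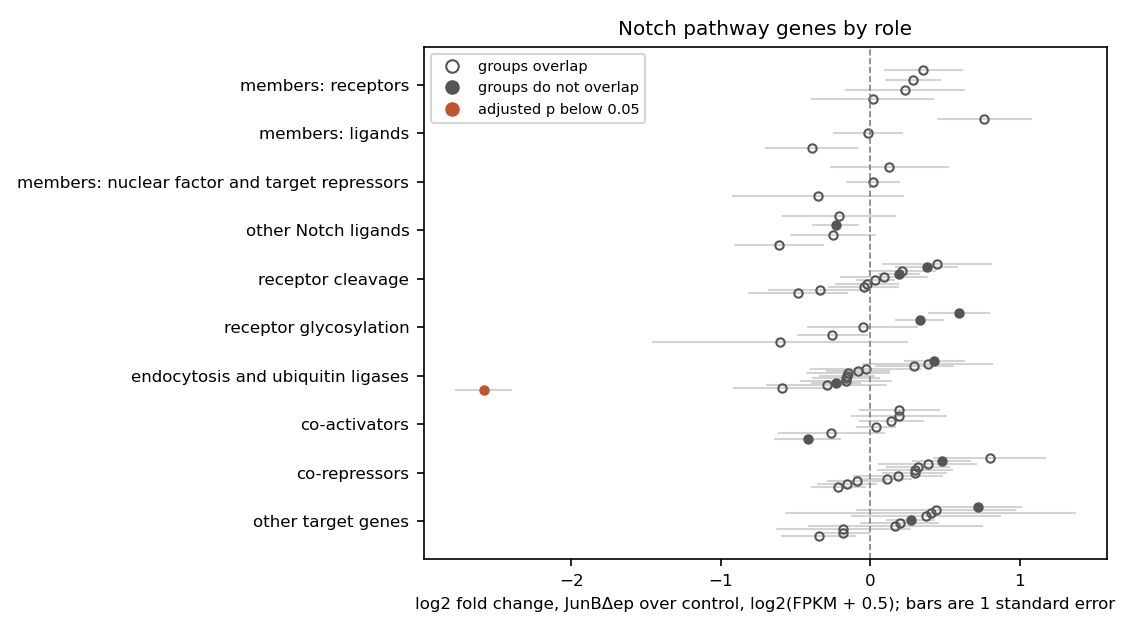
Log2 fold change (x axis, JunBΔep over control, with 1 standard error) of the 10 members and the 59 other pathway genes tested, grouped by role on the y axis. Filled grey points have groups that do not overlap, and the orange point, Neurl1a at -2.59, is the only one with an adjusted p below 0.05.

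Several targets differed more between libraries of 1 group than between the groups. Heyl, a Hey family repressor, was at 1.54, 1.58 and 6.14 FPKM in the controls and at 1.03, 15.9 and 2.10 in JunBΔep skin. Ccnd1, a cyclin, was at 21.4, 18.2 and 42.9 in the controls and at 25.2, 72.8 and 23.1 in JunBΔep skin. Both were highest in JunBΔep replicate 1 and next in control replicate 2. Hey2 and Hes5 had the same order at levels of at most 2.49 and 1.33 FPKM. These 4 were named after their values were seen.

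Those were the libraries with the highest sums of the 7 hair follicle markers (41.2 to 3722 FPKM in the controls, 132 to 6264 in JunBΔep skin) and of the 5 melanocyte markers (6.88 to 77.9 and 8.77 to 114). One hair follicle marker was at 0 in control replicate 0 and 1 in the library labelled JunBΔep replicate 0. Notch1, too, was highest in JunBΔep replicate 1 and next in control replicate 2. Hes1 was highest in JunBΔep replicate 1 but second highest in control replicate 1, which had few follicle keratins. The part of hair follicle content in these levels was not tested.

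**Figure D5:**
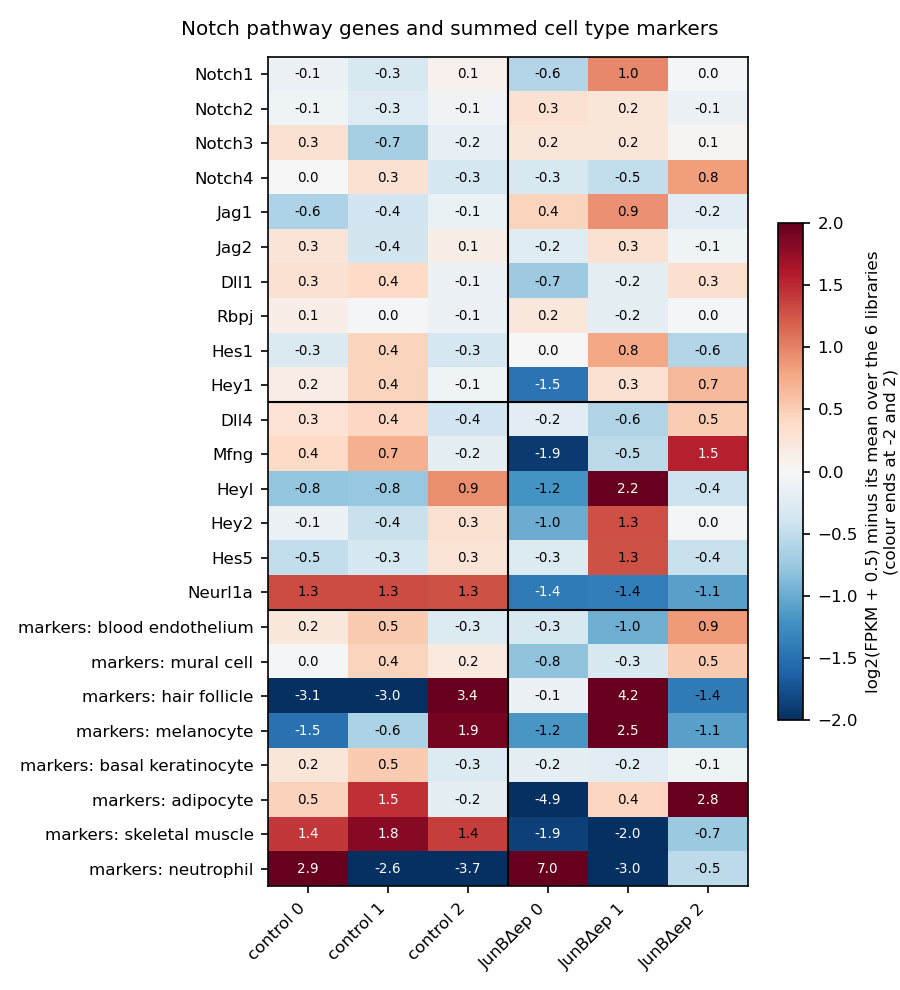
Log2(FPKM + 0.5) of each row minus its mean over the 6 libraries, for the 10 members (top), 6 other pathway genes named after their values were seen or for the call (middle) and the summed markers of 8 cell types (bottom). Columns are libraries, and red is above and blue below the row mean. Heyl is highest in the 2 libraries with the most hair follicle signal, Notch4 peaks where the endothelium row does and Neurl1a splits as the skeletal muscle row does, while Rbpj and Notch2 stay pale.

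The genes whose levels over the 6 libraries were most like those of each member were found by the root mean square difference of log2 values centred on each gene's mean. For the receptors the nearest were Palm3 to Notch1 (0.076), Wdr70 to Notch2 (0.032), Xrcc3 to Notch3 (0.11) and Tppp to Notch4 (0.073). For the ligands they were Exosc2 to Jag1 (0.067), E130308A19Rik to Jag2 (0.059) and Arl4a to Dll1 (0.051). Rbpj lay nearest to Ccr8 (0.030), Hey1 to Plekha4 (0.067) and Hes1 to B3gnt8 (0.14). The differences were not scaled by each gene's own spread, so they cannot be compared between members. Each is the smallest over many genes in 6 libraries, and how close a match would arise by chance was not tested. No member was the nearest or second nearest gene of another member.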

How the data were processed

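Poly(A) RNA of whole skin was made into stranded libraries (1 per mouse). The authors aligned reads to mm9 with TopHat2 2.0.10, Bowtie 1.0.0 and SAMtools 0.1.19, and deposited FPKM per gene. The submitters' processing notes also list Cufflinks and FastQC. Strand use in counting is not stated, and non-coding genes annotated opposite Notch1, Notch3, Notch4 and Dll1 could share their reads. Whole reads could not be recovered from the FPKM values, so the study's count test was not run.

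Genes averaging 0.1 FPKM or more over the mice were tested with limma 3.58.1 in R 4.3.3 (two-sided, intensity trend) on log2(FPKM + 0.5), checked on simulated data, and fold changes on this scale understate those of low genes. Alternatives were other pseudocounts, filters, scalings, variance settings, blocks and left-out libraries. Percentages of marker sums, counts and values of groups apart without a library and the Neurl1a alternatives were added after seeing the data. Members and lists were chosen with earlier results of these data known. Named were all members, pathway genes called, with groups apart or most abundant in their list, Junb and the nearest genes, and marker lists were taken as sums. Heyl, Ccnd1, Hey2, Hes5, Mfng, Dll4, Lfng, Dner and single markers were named after their values were seen. Replicate numbers did not pair the mice. Positions are from the mm9 annotation and sequences from RefSeq.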

Additional observations from a re-analysis of the deposited data

How the results depend on the processing

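The 10 members gave 0 calls under all 20 alternatives run, 7 of which left no gene called at all. The 235 genes called over the whole table, all lower in JunBΔep skin, became 0 with the replicate number as a block, 0 with the name series as a block and 0 with both replicates 0 left out, and from 0 to 251 when 1 library was left out: 0 without any 1 control or without JunBΔep replicate 1, 251 without JunBΔep replicate 2 and 131, including 11 higher, without the library labelled JunBΔep replicate 0. Same-numbered mice did not deviate together (correlations 0.12, -0.23 and -0.43), so the numbers were not taken as pairs. Neurl1a was not called under the replicate block (adjusted p = 0.145 by limma), the name series block (0.066), without both replicates 0 (0.297), without any 1 control or without JunBΔep replicate 1.

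The sign of 6 members depended on the setting. Notch4 was at -0.000340 with a pseudocount of 0.1, and Jag2 at 0.000314 when libraries were rescaled to a sum of 1000000. With both replicates 0 left out Jag2 was at 0.23, Rbpj at -0.028 and Hey1 at 0.29. Leaving out 1 library moved Notch1 from -0.19 to 0.58, Notch4 from -0.40 to 0.27, Hes1 from -0.22 to 0.45, Hey1 from -0.76 to 0.30, Jag2 from -0.20 to 0.11 and Rbpj from -0.10 to 0.11. The causes were not tested. Notch2 (0.20 to 0.42), Notch3 (0.11 to 0.59), Jag1 (0.50 to 1.06) and Dll1 (-0.65 to -0.13) kept their direction when 1 library was left out and in all other settings run, and the member median ran from -0.03 to 0.19 when 1 was left out. The depth behind each FPKM is unknown.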

Other observations

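Marker sums of 6 further cell types were compared between the groups by range. Fibroblast markers ran from 717 to 2311 FPKM in control and from 608 to 1507 in JunBΔep skin, macrophage markers from 138 to 225 and from 63.7 to 224, and the 5 T cell markers matched from 17.8 to 41.2 and from 15.2 to 29.0. Suprabasal keratinocyte markers ran from 7858 to 13845 FPKM and from 8065 to 15964, mural cell markers from 87.4 to 123 and from 51.3 to 130.0, and adipocyte markers from 1824 to 5669 and from 67.5 to 13983. The groups overlapped in each of these 6 sums, and none of their genes was called.

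Mfng, a Fringe that modifies Notch receptors, was at 15.8, 19.9 and 10.4 FPKM in the controls and at 2.79, 8.08 and 35.9 in JunBΔep skin. Dll4, the Delta ligand of endothelial cells, was at 2.99, 3.32 and 1.70 in the controls and at 1.96, 1.38 and 3.58 in JunBΔep skin. Both were highest in JunBΔep replicate 2, as were Notch4, Hey1 and the endothelial and adipocyte marker sums. Dll4 and Mfng were chosen after their values were seen, and the part of cell content in their levels was not tested.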
